A study of Mus musculus with 6 samples.

Results

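The carnitine shuttle brings long-chain fatty acids from the cytosol into the mitochondrial matrix for beta-oxidation. Its genes Slc22a5, Cpt1a, Slc25a20, Cpt2 and Crat were followed in mouse livers that lacked let-7b and let-7c-2, a pair of microRNAs, in hepatocytes (LKO) and in wild type (WT) livers. The genes were taken by exact gene name. All 5 were found among the 14002 genes listed for each mouse, and all 5 passed the filter on low values. Livers came from 3 LKO mice and 3 WT mice, labelled as separate samples of strain C57BL/6, and 1 RNA-seq library was made from each. Both groups are labelled 8 weeks old and received a 60% high-fat diet for 8 weeks, so neither group represents a normal diet. Whether the stated age is that at the start of the diet is not given in the labels. The LKO genotype is labelled as a hepatocyte knockout of let7b/c2. Neither the promoter that drives it nor the sex of the mice is stated in the labels. The levels of let-7b and let-7c-2 themselves were not analysed here, so the deletion was not checked from the data. The series title places the comparison in a network of the nuclear receptor PPARα, let-7 and hepatic lipid metabolism.

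Carnitine enters the hepatocyte through a plasma membrane transporter. At the outer mitochondrial membrane an acyltransferase moves a long-chain acyl group from coenzyme A to carnitine, a carrier in the inner membrane exchanges the acylcarnitine for free carnitine, and a second acyltransferase in the matrix returns the acyl group to coenzyme A. The outer-membrane step is the main control point of hepatic fatty acid oxidation, because malonyl-CoA, the first committed product of fatty acid synthesis, inhibits it. PPARα, a nuclear receptor activated by fatty acids, is a known activator of fatty acid oxidation genes in liver.

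Crat and Slc25a20 fell in LKO livers. Crat was at 23.5% of its WT mean and Slc25a20 at 59.6%. Cpt2 and Slc22a5 had means of 67.1% and 57.9% of WT and did not pass the test over all genes. Cpt1a, which encodes the controlling step, was at 87.1% of its WT mean with overlapping groups. A gene was called where its adjusted p was under 0.05 in limma, a linear model with moderated variances, fitted to log2(value + 1) of all 11168 tested genes. Of all tested genes 3.51% were called, 1.69% lower in LKO and 1.82% higher. Of the 5 shuttle genes 2 were called, both lower. At an unadjusted p under 0.05, 4 of the 5 were lower, against 8.86% of all tested genes. In 4 of the 5 genes every LKO value lay below every WT value, which held for 11.9% of all tested genes. Groups without overlap in either direction made up 24.2%. The median log2 fold change, LKO minus WT, was -0.74 over the 5 genes and -0.0017 over all tested genes.

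**Figure D1:**
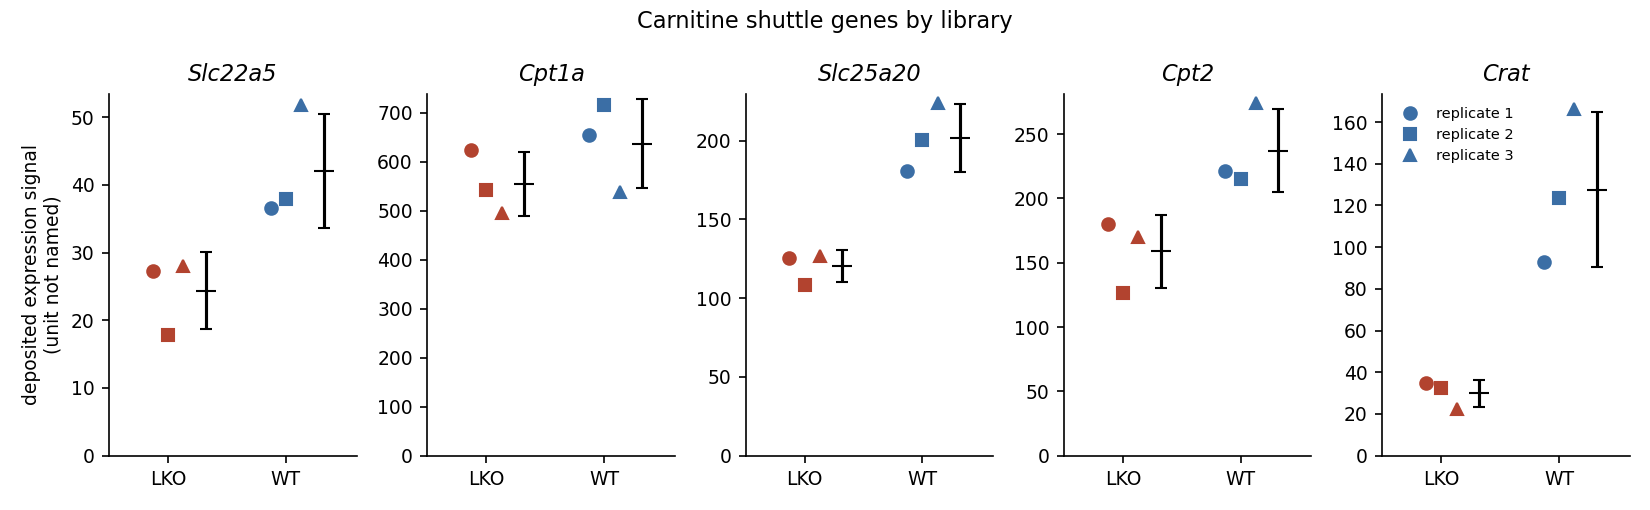
Deposited expression signal (vertical axis, unit not named in the files, starting at 0) of the 5 carnitine shuttle genes in each library, with LKO left and WT right in each panel. Symbols mark replicates 1 to 3 and bars show the mean with its SD (n = 3 per group). LKO points lie below all WT points in every panel except that of Cpt1a, where WT replicate 3 lies among them.

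The 6 libraries held between 8549483 and 10764825 estimated reads over the listed genes. Each value is the authors' expression signal, which behaves as an estimated read count times 1 factor per library, and 3 reads correspond to 0.331 to 0.447 units. Nothing in the labels ties the replicate numbers to litters or batches, and the p-values measure only the spread between these samples. In bulk liver, fewer cells of a type and less RNA per cell cannot be told apart. The labelled tissue was borne out by its markers, with summed signals of 9 hepatocyte markers of 137088 to 204272 in LKO and 140451 to 171289 in WT. LKO replicate 2 held the highest of these sums and the highest signal of the albumin gene Alb, 152823, against 87753 to 121122 in the other 5 libraries. Crat and Slc25a20 are therefore also given without it. On the first principal component, which held 47.1% of the variance, LKO replicate 1 lay nearest to the WT libraries, at -12.99 against -29.44 and -24.86 for LKO replicates 2 and 3. Without LKO replicate 1, 540 genes were called in place of 392, and the log2 fold changes of Crat and Slc25a20 were -2.15 and -0.77.

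The plasma membrane step is encoded by Slc22a5 (also known as Octn2, a sodium-dependent carnitine transporter), on chromosome 11 at 53864542 to 53891660 on the minus strand (GRCm38). Its signal was 27.3, 17.8 and 28.1 in LKO replicates 1, 2 and 3, against 36.6, 37.9 and 51.8 in WT replicates 1, 2 and 3. The LKO values were all lower, with replicate 2 the lowest, and the highest value belonged to WT replicate 3. The means were 24.4 ± 5.69 in LKO and 42.1 ± 8.44 in WT (SD, n = 3 each). Its log2 fold change was -0.77 (SE 0.20, 95% interval -1.21 to -0.33), and its adjusted p in limma was 0.0672, so the gene was not called. On average this was the least deeply covered of the 5 genes, with 120 to 252 estimated reads in LKO and 281 to 469 in WT. Its estimated reads were not whole numbers in 4 of 6 libraries, as happens where reads are shared with similar sequences. Slc22a21, a carnitine transporter gene of the same family, had at most 0.805 units in any library.

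Cpt1a encodes the liver form of the outer-membrane carnitine palmitoyltransferase, on chromosome 19 at 3322334 to 3385733 on the plus strand. It had 625, 543 and 496 units in LKO replicates 1, 2 and 3, against 655, 717 and 538 units in WT replicates 1, 2 and 3. The groups overlapped, because WT replicate 3 lay below LKO replicates 1 and 2. Means were 554 ± 65.5 in LKO and 637 ± 90.9 in WT, a log2 fold change of -0.20 (SE 0.14, 95% interval -0.52 to 0.13, adjusted p in limma 0.512). This interval overlaps those of Slc22a5, Cpt2 and Slc25a20 (-1.01 to -0.47 for Slc25a20), but not that of Crat (-2.53 to -1.54). Cpt1a was also the most highly covered gene, with 3646 to 5681 estimated reads, all whole numbers.

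Cpt1b, the muscle form of this enzyme, was barely present. It had 0.923, 1.34 and 0.668 units in LKO replicates 1, 2 and 3, against 1.82, 4.92 and 4.53 units in WT replicates 1, 2 and 3. Its log2 fold change was -1.21 (SE 0.32), and its adjusted p in limma was 0.0734. Cpt1b lies close to the gene Chkb on chromosome 15 and is annotated as an overlapping locus, so the origin of such low signal is uncertain. The skeletal muscle actin gene Acta1, the listed member of the muscle marker list, was at 0 in all 6 libraries.

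Slc25a20 encodes the carnitine-acylcarnitine translocase of the inner membrane, on chromosome 9 at 108662088 to 108684641 on the plus strand. It had 126, 109 and 126 units in LKO replicates 1, 2 and 3, against 181, 200 and 224 units in WT replicates 1, 2 and 3. No LKO library came near the lowest WT library, and the LKO group had the smallest relative spread of the 5 genes, a coefficient of variation of 8.43%. The means were 120 ± 10.1 in LKO and 202 ± 21.7 in WT. Its log2 fold change was -0.74 (SE 0.12, 95% interval -1.01 to -0.47, adjusted p in limma 0.0106), the 120th smallest p of 11168 tested genes. Without LKO replicate 2 it was -0.67, with an adjusted p of 0.0415.

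RefSeq windows at the starts of Slc25a20, Cpt1a, Slc22a5 and Cpt2 were searched on both strands for the direct repeat bound by PPARα with its partner RXR, AGGTCANAGGTCA. The window of Crat was not analysed here. In the Slc25a20 window, from 250 bases before to 50 bases after the annotated start (GRCm38.p6, chr9:108661886-108662185, plus strand), the best match had 2 mismatches among the 12 scored letters. It is shown in capitals, starts 6 bases after the start base and spans 108662142 to 108662154. Among 32851 RefSeq windows of this length, 3.86% held a match with at most 2 mismatches and 0.0396% an exact one. In the windows of Cpt1a, Slc22a5 and Cpt2 the best matches had 4, 4 and 5 mismatches. The single copy AGGTCA was in none of the 4 windows except that of Cpt1a, and in 16.3% of all windows. These are matches of letters in a short window. Binding was not measured here.
Slc25a20 promoter window: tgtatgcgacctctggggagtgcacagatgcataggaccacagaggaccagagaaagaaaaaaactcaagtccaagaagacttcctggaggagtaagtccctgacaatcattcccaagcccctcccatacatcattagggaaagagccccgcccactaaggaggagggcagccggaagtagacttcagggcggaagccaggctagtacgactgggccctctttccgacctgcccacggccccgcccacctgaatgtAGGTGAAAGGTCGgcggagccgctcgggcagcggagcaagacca

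Cpt2 encodes the matrix-side carnitine palmitoyltransferase, on chromosome 4 at 107903981 to 107923610 on the minus strand. Its values in LKO replicates 1, 2 and 3 were 180, 127 and 170 units, against 221, 215 and 274 units in WT replicates 1, 2 and 3. The groups did not overlap, and LKO replicate 2 was again the lowest and WT replicate 3 again the highest. Cpt2 averaged 159 ± 28.4 in LKO and 237 ± 32.4 in WT, a log2 fold change of -0.58 (SE 0.15, 95% interval -0.93 to -0.24). With an adjusted p of 0.0766 in limma it was not called. Without LKO replicate 1 its adjusted p was 0.0493, at a log2 fold change of -0.68.

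Crat encodes carnitine acetyltransferase, which transfers acetyl and other short acyl groups between carnitine and coenzyme A and so lets the matrix export them. The gene lies on chromosome 2 at 30400471 to 30415813 on the minus strand. It had 34.8, 32.6 and 22.6 units in LKO replicates 1, 2 and 3, against 92.7, 124 and 167 units in WT replicates 1, 2 and 3. The highest LKO library was below the lowest WT library by a wide margin, and the WT libraries varied most of all 5 genes, with a coefficient of variation of 29.0%. Means were 30.0 ± 6.5 in LKO and 128 ± 37.1 in WT. The log2 fold change was -2.04 (SE 0.22, 95% interval -2.53 to -1.54, adjusted p in limma 0.00159), the 25th lowest of 11168 tested genes. Without LKO replicate 2 it was -2.10, with an adjusted p of 0.00871.

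Crat was also the gene of the 5 with a match to the let-7 seed, the bases through which a microRNA recognises its targets. The deleted microRNAs are encoded on chromosome 15, and mature let-7b (85707325 to 85707346, GRCm38.p6) and let-7c from the let-7c-2 gene (85706616 to 85706637) share their seed, bases 2 to 8, shown in capitals in the RefSeq sequences.
let-7b-5p: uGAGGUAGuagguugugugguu
let-7c-5p: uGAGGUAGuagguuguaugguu
The longest annotated 3′ untranslated region of Crat, 2107 bases in GENCODE M21, holds 1 match of 8 letters, at bases 1200 to 1207 (chromosome 2, 30401371 to 30401378, GRCm38). The site is shown in capitals with its flanks, in the sense of the transcript.
Crat site: aggatgaaaCTACCTCAgagaagc
The longest annotated 3′ untranslated regions of Cpt1a, Slc22a5, Slc25a20 and Cpt2, of 1892, 1267, 747 and 251 bases, held no match of 6 letters or more. Of 10684 tested genes with such a region, 3.69% held the match of 8 letters. As background, a microRNA lowers the level of its targets. Crat was lower in LKO, and whether let-7 acts at this site was not tested.

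**Figure D2:**
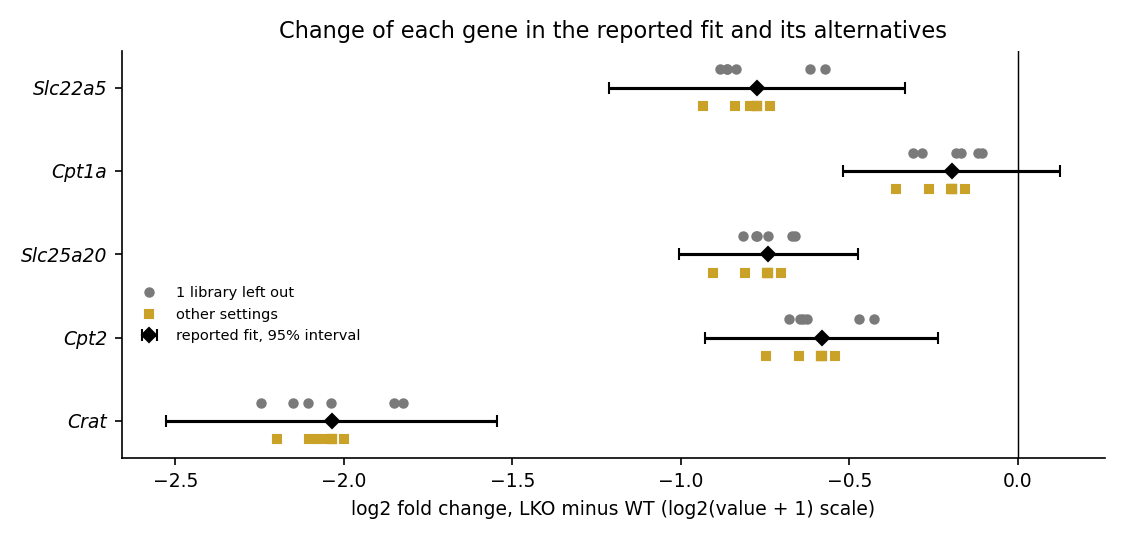
Log2 fold change, LKO minus WT (horizontal axis, log2(value + 1) scale), of the 5 genes. Diamonds and bars give the reported fit with its 95% interval, circles the 6 fits with 1 library left out and squares the other settings. The circles of Crat run from -2.24 to -1.83 and those of Cpt1a from -0.31 to -0.11.

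Changes of the shuttle genes were set against each other within each library. The ratio of 2 genes within a library does not depend on how libraries were scaled, and was compared for all 10 pairs with an exact two-sided permutation test. With 3 against 3 libraries the smallest p it can give is 0.1, so no pair can pass 0.05. The log2 ratio of Crat to Cpt1a was -4.17, -4.06 and -4.45 in LKO replicates 1, 2 and 3, against -2.82, -2.53 and -1.69 in WT replicates 1, 2 and 3. The groups did not overlap, and the difference in means was -1.88 (exact permutation p 0.1, 0.167 adjusted over 10 pairs). Crat was lower in LKO relative to each of the other 4 genes, by -1.27 to -1.49 against Slc22a5, Slc25a20 and Cpt2, with no overlap in any of these ratios.

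Slc25a20 over Cpt1a had log2 ratios of -2.31, -2.32 and -1.97 in LKO replicates 1, 2 and 3, against -1.86, -1.84 and -1.26 in WT replicates 1, 2 and 3. The LKO ratios were all lower, by 0.55 in the mean (exact permutation p 0.1, adjusted 0.167). Slc22a5 and Cpt2 relative to Cpt1a overlapped between groups, with mean differences of -0.60 and -0.39 (exact permutation p 0.3 each, adjusted 0.333). The ratio of Slc22a5 to Slc25a20 differed by -0.05 (exact permutation p 0.8, adjusted 0.8), and this difference turned positive without LKO replicate 2 or WT replicate 3. In all, 6 of the 10 ratios had no overlap. These include every ratio with Crat, so they are not independent of each other. In each ratio the gene with the larger fall was placed on top, which set the direction beforehand. The share of ratios without overlap among other genes was not computed.

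**Figure D3:**
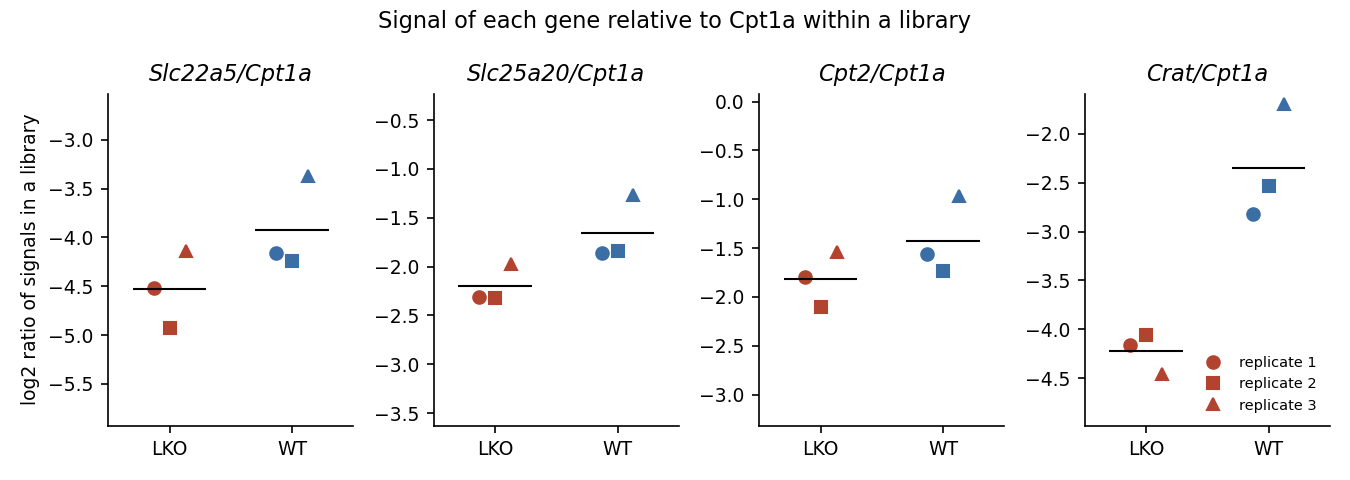
Log2 ratio of the signal of each gene to that of Cpt1a in the same library (vertical axes, equal in span), with LKO left and WT right. Symbols mark replicates 1 to 3 and lines the means. The Crat ratios average -4.23 in LKO and -2.35 in WT and do not overlap, and WT replicate 3 has the highest ratio in each panel.

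WT replicate 3 had the highest Slc22a5, Slc25a20, Cpt2 and Crat of the WT libraries and the lowest Cpt1a. Among the LKO libraries, replicate 2 had the lowest Slc22a5, Slc25a20 and Cpt2, and replicate 3 had the lowest Cpt1a and Crat. Without WT replicate 3 the log2 fold changes of Crat and Slc25a20 were -1.83 and -0.66, and both remained called.

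Levels of the genes can be compared with each other once divided by length, here the longest annotated coding transcript of 1783 to 4317 bases. On this scale Cpt1a was the highest in LKO at 128 ± 15.2 units per kb, followed by Slc25a20 at 67.4 ± 5.69 and Cpt2 at 67.0 ± 11.97, whose LKO levels did not differ beyond their spread. In WT the order was Cpt1a at 147 ± 21.1, Slc25a20 at 113 ± 12.2 and Cpt2 at 99.9 ± 13.6, and Slc25a20 lay above Cpt2 in all 3 WT libraries. Slc22a5 and Crat were the lowest, at 7.97 ± 1.86 and 7.11 ± 1.54 in LKO, against 13.8 ± 2.76 and 30.2 ± 8.77 in WT. In WT Crat lay above Slc22a5, and in LKO these levels were within their spread. Crat has several annotated coding transcripts of different length, and the files give 1 value per gene.

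Summed over the 5 genes, the per-length level was 308, 254 and 272 units per kb in LKO replicates 1, 2 and 3, against 380, 411 and 422 in WT replicates 1, 2 and 3. The LKO sums were all lower, at 68.7% of the WT mean. Cpt1a made up 46.2% ± 3.74 of the sum in LKO and 36.6% ± 6.16 in WT, and the groups did not overlap. The share of Crat was 2.56% ± 0.55 in LKO and 7.41% ± 1.80 in WT. Those of Cpt2 were close, at 24.0% ± 2.71 in LKO and 24.7% ± 2.65 in WT. Among 10710 tested genes with a length, Cpt1a stood at the 94.6th percentile of per-length level in LKO and the 95th in WT. Crat stood at the 56.8th in LKO and the 83.7th in WT.

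**Figure D4:**
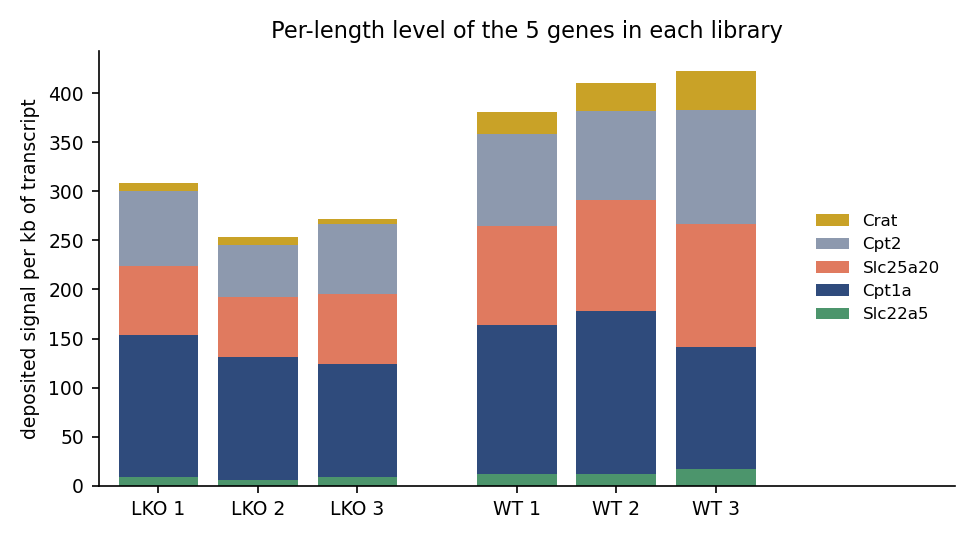
Deposited signal per kb of the longest coding transcript (vertical axis, starting at 0) stacked over the 5 genes in each library, the LKO libraries left and the WT libraries right. The LKO stacks reach 254 to 308 and the WT stacks 380 to 422, and the Crat layer at the top is thinner in all 3 LKO libraries.

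Of 6 tested genes for other carnitine enzymes and carriers 1 rose, none fell and 5 did not pass, with a median log2 fold change of 0.06. Slc25a45, a mitochondrial carrier of the same family as Slc25a20, rose to 41.2 ± 5.75 in LKO, against 20.1 ± 4.58 in WT (log2 fold change 1.02, SE 0.18, adjusted p in limma 0.0171). Its call was lost without LKO replicate 2 or 3 and with no mean-variance trend (adjusted p 0.0536). Crot encodes the peroxisomal carnitine octanoyltransferase, which prepares chain-shortened acyl groups for transfer to mitochondria. It had 260, 157 and 173 units in LKO replicates 1, 2 and 3, against 408, 316 and 773 units in WT replicates 1, 2 and 3. The groups did not overlap, but the highest WT library was far from the other 2, and the log2 fold change of -1.27 (SE 0.30) had an adjusted p of 0.0511 in limma. Slc22a4, a related organic cation transporter gene, had a log2 fold change of 0.70, the carnitine efflux gene Slc16a9 0.53 and the carrier gene Slc25a29 -0.42, all from fewer than 5 units per library. Of the carnitine synthesis genes, Aldh9a1 had a log2 fold change of -0.45 and Bbox1, the last enzyme of the pathway, -0.24, and neither was called.

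Of 11 genes that set malonyl-CoA, the inhibitor of the Cpt1a product, 1 rose and none fell, with a median of 0.11. Acaca, which encodes the cytosolic acetyl-CoA carboxylase that makes malonyl-CoA, had 221, 547 and 414 units in LKO replicates 1, 2 and 3, against 146, 194 and 111 units in WT replicates 1, 2 and 3. The LKO values were all higher but spread widely, and the log2 fold change was 1.32 (SE 0.30, adjusted p in limma 0.0463). This call held without LKO replicate 1 and was lost without any other single library. It was also lost with limma-voom (adjusted p 0.0502), a pseudocount of 0.1, another filter or no mean-variance trend, where the adjusted p ran from 0.0508 to 0.109. Acacb, the carboxylase placed at mitochondria, had 0.74 with overlapping groups and an adjusted p of 0.281. Mlycd, which breaks malonyl-CoA down, averaged 94.7 ± 10.5 in LKO and 99.7 ± 6.88 in WT (log2 fold change -0.08).

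Acsl1, which activates long-chain fatty acids before the shuttle, was at 46.5% of its WT mean (log2 fold change -1.15, adjusted p 0.0241) and was the called gene among 7 tested acyl-CoA supply genes. Its call held without LKO replicate 1 and was lost without any other single library and with no mean-variance trend (adjusted p 0.0646). In the mitochondrial beta-oxidation list 6 of 15 genes fell and all 15 log2 fold changes were negative, against 50.2% over all tested genes, with a median of -0.42. The medium-chain dehydrogenase gene Acadm had -0.99, Hadh, for the short-chain hydroxyacyl step, -0.77, the isomerase gene Eci1 -0.86 and the long-chain dehydrogenase gene Acadl -0.50. In the peroxisomal list 4 of 16 genes fell, 13 of 16 log2 fold changes were negative, and the median was -0.37. Among those 4 were the thiolase gene Acaa1b (-1.59) and the peroxisome division gene Pex11a (-1.28). The bifunctional enzyme gene Ehhadh had -1.21. With single libraries left out, Acadm, Hadh, Acaa1b and Pex11a were called in 6 of 6 fits, Ehhadh in 4, Eci1 in 2 and Acadl in 1. The calls of Ehhadh, Eci1 and Acadl were also lost with no mean-variance trend, at adjusted p of 0.0586 to 0.0904. Whether the shuttle genes differ from these lists as groups was not tested.

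Of 19 general mitochondrial genes, for import, channels, chaperones and dynamics, 0 were called by limma or by limma-voom and 2 had an unadjusted p under 0.05, a threshold that 18.4% of all tested genes passed in either direction. Their median log2 fold change was -0.06. The matrix chaperone genes Hspa9 and Hspd1, the highest of the list, had log2 fold changes of -0.04 and -0.13. Relative to these 19 genes, Crat and Slc25a20 had log2 fold changes of -1.998 and -0.70, with adjusted p of 0.00225 and 0.0165 in limma. Of 35 other tested carriers of the SLC25 family, 1 rose (Slc25a45) and 1 fell, the dicarboxylate carrier gene Slc25a10 (-0.80, adjusted p 0.0085), with a median of -0.02. The 15 mitochondrially encoded genes had a median of -0.31, 13 of 15 being negative, with 0 called by limma or limma-voom and 3 at an unadjusted p under 0.05, and mt-Co1 and mt-Cytb, which encode subunits of the respiratory chain, each had -0.31.

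**Figure D5:**
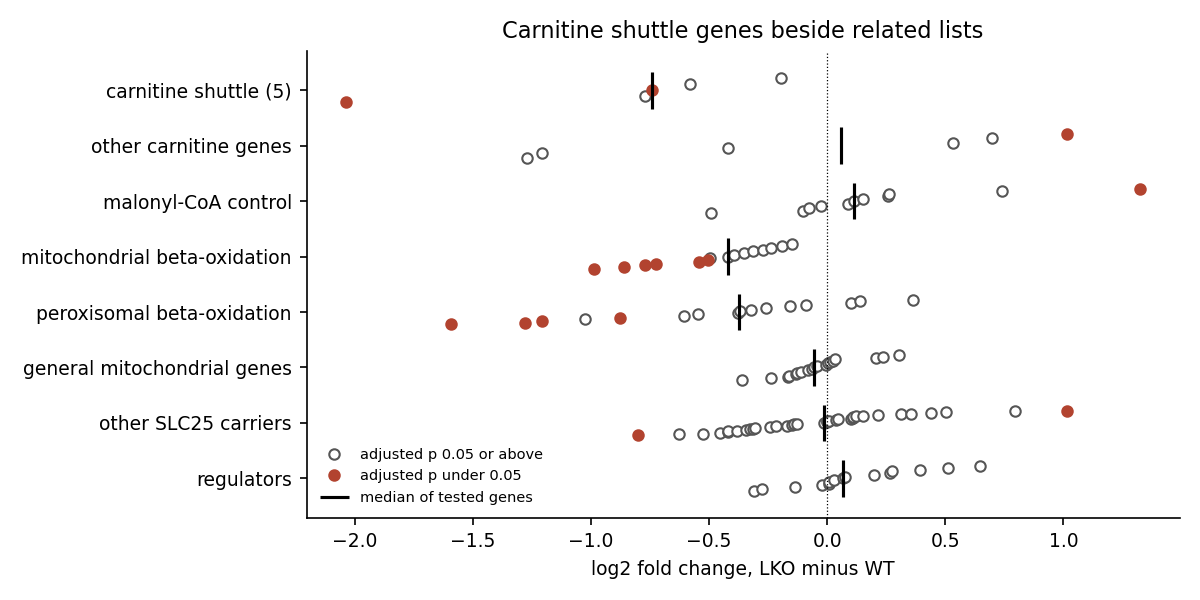
Log2 fold change, LKO minus WT (horizontal axis), of each tested gene in the carnitine shuttle and 7 related lists. Filled points have an adjusted p under 0.05 in limma and black lines are list medians. The shuttle median of -0.74 lies left of the medians of mitochondrial beta-oxidation (-0.42) and of general mitochondrial genes (-0.06).

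The known transcriptional regulators of the shuttle did not pass the test. Limma and limma-voom each called 0 of 15, 2 had an unadjusted p under 0.05, and the median was 0.07. The PPARα gene Ppara averaged 119 ± 14.7 in LKO and 117 ± 9.93 in WT, and its partner Rxra 549 ± 30.9 in LKO and 546 ± 28.9 in WT. Their log2 fold changes of 0.03 and 0.01 turned negative with library size or hepatocyte markers as the scaling, settings that moved the median of all tested genes to -0.065 and -0.16. Ppargc1a, a coactivator of PPARα, had 18.1 ± 0.174 in LKO and 14.9 ± 0.944 in WT (log2 fold change 0.26, adjusted p 0.307). Lpin1, a further coactivator, had 0.65 (adjusted p 0.0671), and the hepatocyte factor Hnf4a 0.27.

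Markers of Kupffer cells and macrophages were higher in the same LKO livers. All 10 Kupffer cell and macrophage markers had positive log2 fold changes, with a median of 0.81, 4 called and none at 0, and their summed signal was 169 to 241 in LKO and 111 to 124 in WT. Clec4f, a Kupffer cell lectin gene, averaged 53.7 ± 9.74 in LKO and 29.6 ± 3.59 in WT, with an adjusted p of 0.0217 in limma. The other called markers were Csf1r, Timd4 and Vsig4. Cd5l averaged 44.0 ± 7.59 in LKO and 28.2 ± 1.56 in WT and was not called (adjusted p 0.0537). The 8 sinusoidal endothelial markers had a median of 0.35 with 0 called by limma or limma-voom and 4 at an unadjusted p under 0.05, and sums of 143 to 163 in LKO and 114 to 131 in WT, and the 8 stellate markers one of 0.06, with 0 at an unadjusted p under 0.05 and sums of 293 to 319 in LKO and 297 to 320 in WT. The 7 listed lymphocyte markers, among which Cd4 alone was tested and rose, summed to 4.32 to 7.52 in LKO and 1.14 to 2.32 in WT. Of the 6 cholangiocyte markers 2 were tested and neither was called by limma or limma-voom, with 1 at an unadjusted p under 0.05 and sums of 25.0 to 58.6 in LKO and 16.4 to 40.4 in WT. Cidea, the listed member of the adipocyte marker list, had 0 to 0.298 in LKO and 0.260 to 1.77 in WT. It was too low to be tested and cannot show whether adipocytes differed. The 9 hepatocyte markers had a median of 0.27, with 0 called by limma, 1 by limma-voom and 3 at an unadjusted p under 0.05. The part of these other cells in the changes of the shuttle genes was not tested. With every library scaled to the hepatocyte markers, which moved the median of all genes to -0.16, the log2 fold changes less that median were -2.04 for Crat, -0.78 for Slc22a5, -0.75 for Slc25a20, -0.59 for Cpt2 and -0.21 for Cpt1a.

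For each gene the 2 genes with the most similar profile over the 6 libraries were taken, by the root mean square difference of centred log2 values, which was smallest for the closest match. The nearest to Cpt1a were Ces2g (0.038) and Anapc11 (0.050), and those to Cpt2 were Ccdc107 (0.051) and Hsd17b4 (0.056). Dpys (0.051) and Creg1 (0.079) were nearest to Slc25a20, Ccng2 (0.11) and Cpox (0.13) to Slc22a5, and Lgals1 (0.24) and Vnn1 (0.24) to Crat. The distances were largest for Crat, but the measure is not scaled to the size of a change, which was also largest for Crat. Lgals1 and Vnn1 were picked for their likeness to Crat in these same libraries. Their log2 fold changes were -1.85 and -2.29.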

How the data were processed

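Liver RNA of 3 LKO and 3 WT mice was prepared with a stranded mRNA kit, per the labels' protocols. Per the submitters' processing notes the tools were RSEM 1.2.22, STAR 2.5.1, Trimmomatic 0.36, edgeR, Picard 1.84 and bcl2fastq 2.17, and the build was mm10. Their roles are not stated there. The authors deposited 1 expression signal per gene and mouse, with its unit not named. These values are estimated counts, in hundredths of a read, times a factor per library, and 82.0 to 83.1% were whole reads within 0.005, so no count model was the main test. The planned test for such values was kept. Libraries held 8549483 to 10764825 estimated reads.

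Values as deposited were fitted as log2(value + 1) with limma 3.58.1 in R 4.3.3, with a mean-variance trend, for the 11168 of 14002 genes with a mean of at least 1. Tests were two-sided with Benjamini-Hochberg adjustment over all tested genes. Fold changes of low genes are understated on this scale. Within-library ratios used an exact permutation test (scipy 1.17.1). The fit was tested on simulated data, with an outcome not reported here, and no result given here rests on it. Gene IDs matched GENCODE M21 for 13977 genes. Promoter windows and microRNAs came from RefSeq GRCm38.p6, which matched 4 of the 5 genes and both microRNAs.

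The members and gene lists were chosen with earlier results of these data known. From each list up to 4 called genes with the smallest p are named, or the 2 highest where none was called. All tested carnitine genes, Acaca, Acacb, Mlycd, Ppara, Rxra, Ppargc1a and the 2 nearest profiles per gene are named as well. Alternatives were the pseudocount, the filter, the scaling, the variance trend, limma-voom on estimated counts, a replicate block and leaving out each library. Scaling to hepatocyte markers or to general mitochondrial genes was added after seeing the data.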

Additional observations from a re-analysis of the deposited data

How the results depend on the processing

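Crat and Slc25a20 were called in every setting tried, and Cpt1a in none. The adjusted p of Slc25a20 in limma came close to 0.05, at 0.0492 with no mean-variance trend and up to 0.0439 with single libraries left out. For Crat it was 0.0117 with no trend and up to 0.0122 with single libraries left out. With single libraries left out, log2 fold changes ran from -2.24 to -1.83 for Crat, -0.82 to -0.66 for Slc25a20, -0.88 to -0.57 for Slc22a5, -0.68 to -0.43 for Cpt2 and -0.31 to -0.11 for Cpt1a, and 2 to 3 of the 5 genes were called. Scaled to hepatocyte markers, Cpt2 (-0.75, adjusted p in limma 0.0472) and Slc22a5 (-0.93, adjusted p 0.0393) were called as well, making 4. Correlations of same-numbered deviations were small, at 0.0465, 0.0324 and 0.0535, although each library correlated best with its own number. The labels state no pairing, and these values cannot decide whether the numbers mark one. With the replicate block 4 genes were called, as Cpt2 (-0.58, adjusted p 0.0469) and Slc22a5 (-0.77, adjusted p 0.0305) passed. The ratio of Slc22a5 to Slc25a20 ran from -0.13 to 0.085 with single libraries left out, being 0.085 without LKO replicate 2 and 0.026 without WT replicate 3.

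Of all tested genes 189 were called lower and 203 higher. The lower count was 97 with no mean-variance trend, 351 scaled to hepatocyte markers (137 higher) and 79 to 263 with single libraries left out, and the higher count was 133 with a filter of 10, 98 with no trend and 76 to 277 with single libraries left out. In the related lists 12 were called lower, 5 with no trend and 5 to 17 with single libraries left out. The 2 called higher became 1 with a pseudocount of 0.1, with no filter, with a filter of 10 and with limma-voom, 0 with no trend, and 0 to 3 with single libraries left out. Signs turned for Mlycd (0.018 without LKO replicate 2) and Hspa9 (-0.082 to 0.0035 with single libraries left out). Ppara was -0.040 by library size, -0.14 scaled to hepatocyte markers and -0.050 to 0.13 with single libraries left out. Rxra was -0.061 by library size, -0.16 scaled to hepatocyte markers and -0.033 to 0.050 with single libraries left out. Scaling by library size or hepatocyte markers moved the median of all tested genes to -0.065 and -0.16. The cause of the other shifts was not tested. Slc22a5, with 120 to 469 estimated reads per library, had the fewest reads of the 5 genes in every library except LKO replicate 3, where Crat had 203 against 252.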
